A study of Mus musculus with 2 samples.

Results

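The genes described here are 10 members of growth factor signalling: the ligands Fgf2, Fgf7, Fgf10, Hgf, Igf1 and Vegfa and the receptors Met, Pdgfra, Pdgfrb and Igf1r. They were chosen by gene symbol, and they are 10 of the 32285 genes counted in a single-cell RNA sequencing experiment on cultured vascular smooth muscle cells (VSMCs) of C57BL/6 mice. VSMCs are the contractile cells of the vessel wall, and in culture they can lose contractile genes and begin to divide and secrete. The study grew 4 cultures: VSMCs of young mice (12 weeks), VSMCs of old mice (58 to 78 weeks), young VSMCs given 100 nM angiotensin II (AngII, a vasoconstrictor hormone) for 48 h, and old VSMCs labelled as transfected with 20 nM of an siRNA against Piezo1, a mechanosensitive ion channel. The young and old cultures served as the controls, and the methods list a nontargeting siRNA. The study's text names old cells given nontargeting siRNA for immunostaining, and whether the sequenced old control was treated likewise is not stated in the sources used here. The siRNA concentration is that of the labels and the methods, and another stands elsewhere in the study's text. Each culture was stained with its own hashtag antibody before all cells were mixed and captured together, so that gene and hashtag molecules were read from the same barcodes.

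The numbers 1 to 4 beside the groups in the study's schematic were taken as hashtag numbers: tag 1 young, tag 2 old, tag 3 young + AngII and tag 4 old + siPiezo1. The sources used here do not state that these are hashtag numbers, and for that reason tags are also named by number. A cell belonged to a tag when only that hashtag was above its cutoff (36, 52, 61 and 41 hashtag molecules for tags 1 to 4). With 1 culture per tag there was no replicate, and no test between cultures could be made. All intervals are 95% intervals of counting error only.

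Fibroblast growth factors, hepatocyte growth factor (HGF), platelet-derived growth factors (PDGF), insulin-like growth factor 1 (IGF1) and vascular endothelial growth factor A (VEGFA) are secreted proteins that bind receptor tyrosine kinases on the cell surface and activate, among others, the ERK and PI3K-AKT cascades. PDGF and FGF2 are known in the arterial wall for driving VSMC migration and division after injury. Met is the receptor of HGF, Pdgfra and Pdgfrb are the receptors of the PDGF ligands, and Igf1r is the receptor of IGF1.

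In all, 13045 barcodes passed as cells (at least 2218 gene molecules and 200 genes). Tags 1 to 4 held 3144, 497, 1500 and 1529 cells with 5577355 to 24120561 molecules (unique molecular identifiers, UMIs) per tag and medians of 6816 to 10663 UMIs per cell, while 5307 cells had no tag and 1068 had more than 1. Piezo1 did not check the label of tag 4: it stood at 71.6, 89.6, 108 and 86.9 CPM in tags 1 to 4 (a gene's UMIs per 1000000 gene UMIs of the tag), so the name "labelled siPiezo1" is used. The cultures also differed in Xist, the RNA of the inactive X chromosome of female cells. Cells with Xist UMIs made up 12.8%, 71.8%, 16.9% and 76.1% of tags 1 to 4. The 10 VSMC markers summed to 1322, 2146, 1491 and 1023 CPM, but Myh11, the smooth muscle myosin that defines mature VSMCs, stood at only 5.27, 7.89, 1.94 and 3.60 CPM. Fibroblast markers summed to 996, 657, 1331 and 819 CPM, dividing cell markers to 676, 649, 425 and 725 CPM, and endothelial and macrophage markers to at most 4.84 and 26.7 CPM with 2 to 3 of 8 and 1 to 3 of 8 genes at 0. Epithelial or mesothelial markers summed to 18.2, 17.6, 13.3 and 9.31 CPM. These marker sums moved with the tags, and their part in the results below was not tested.

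Hgf, Pdgfra and Pdgfrb were the members at least 1.5-fold apart in more than 1 of the 3 comparisons. No promoter entry was used for Pdgfrb. The promoters of Hgf and Pdgfra are shown, and their windows held no annotated exon. The sequences are the 250 bases before the transcription start in RefSeq (GRCm38.p6), 5′ to 3′ on the plus strand, at chr5:16553245-16553494 for Hgf and chr5:75152001-75152250 for Pdgfra. Capitals mark matches, on either strand, to the TATA box (TATAAA), the GC box (GGGCGG), the AP-1 site (TGANTCA), the core of the hypoxia response element (ACGTG or GCGTG) and the CArG box that serum response factor binds.
Hgf: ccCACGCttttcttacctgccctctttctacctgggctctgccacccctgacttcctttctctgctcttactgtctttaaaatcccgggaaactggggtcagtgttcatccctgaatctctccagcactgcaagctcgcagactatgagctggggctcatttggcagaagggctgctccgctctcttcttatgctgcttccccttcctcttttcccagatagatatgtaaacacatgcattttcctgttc
Pdgfra: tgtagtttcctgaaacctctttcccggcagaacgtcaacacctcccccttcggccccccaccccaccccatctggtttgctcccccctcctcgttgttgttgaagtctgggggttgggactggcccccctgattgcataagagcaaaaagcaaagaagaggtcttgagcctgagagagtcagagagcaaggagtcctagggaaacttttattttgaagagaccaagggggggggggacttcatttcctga
The Hgf window held 1 match, to the hypoxia response core at 244 to 248 bases before the start, which 38.6% of the 32851 promoters of the same length also held. Another promoter entry of Hgf, starting at chr5:16553651 and not shown, held none of the 5 motifs. The Pdgfra window held none of the 5 motifs, and the TATA box, GC box, AP-1 site and CArG box occurred in 12.4%, 32.7%, 6.75% and 1.47% of all promoters. GC content was 50.8% for Hgf and 54.4% for Pdgfra against a median of 52.4%. A match is a description of the letters and not evidence of binding. Promoter entries were used for 9 of the 10 members, all but Pdgfrb.

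Between old cells (tag 2) and young cells (tag 1), Hgf was higher over all cells, a direction that turned among cells with Xist and within both usable clusters, and both PDGF receptors were lower. Of the 10 members, 1 was at least 1.5-fold higher (Hgf) and 2 were at least 1.5-fold lower (Pdgfra and Pdgfrb). Over the 8462 genes with at least 10 CPM, 8.34% were that much higher and 9.83% that much lower. The median ratio of the members was 1.22, against 1.02 for all genes. Between AngII-treated young cells (tag 3) and young cells (tag 1), 1 member was at least 1.5-fold higher (Fgf2) and 2 were lower (again Pdgfra and Pdgfrb), against 6.9% and 7.59% of all genes, with medians of 1.04 and 1.03. These comparisons share tag 1 as the denominator, so that a level particular to that culture enters both. Between the cells labelled siPiezo1 (tag 4) and old cells (tag 2), 2 members were higher (Hgf and Pdgfra) and 1 was lower (Igf1), where 1.77% and 0.945% of all genes were that far apart. The median ratios were 1.04 for the members and 1.01 for all genes. Tag 2 is likewise shared, as the denominator here and the numerator of old over young cells. All 10 members exceeded 10 CPM over all cells.

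**Figure D1:**
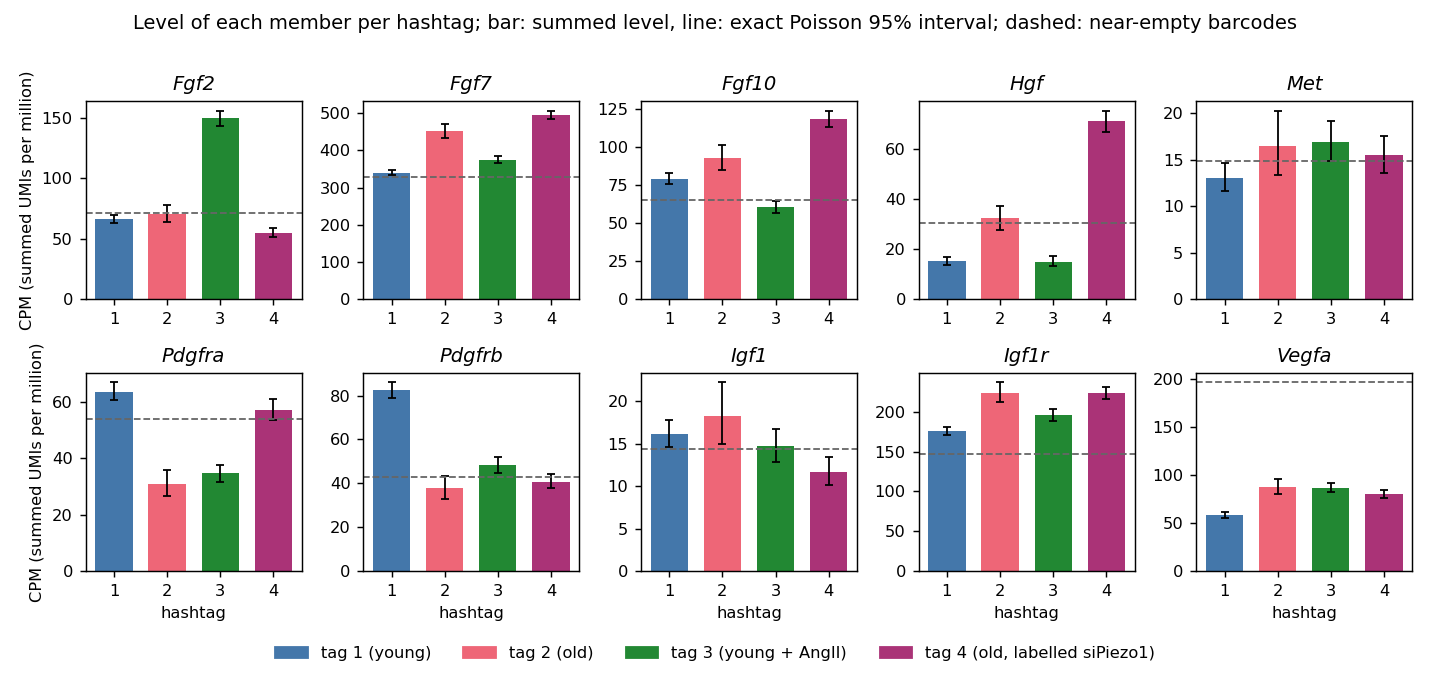
Level of each of the 10 members in the 4 hashtags, in CPM of summed UMIs (bars) with exact Poisson 95% intervals (lines); the dashed line is the level in near-empty barcodes. Fgf2 was highest in tag 3 at 149 CPM, Hgf in tag 4 at 71.0 CPM and Pdgfrb in tag 1 at 82.3 CPM, while Vegfa lay below its near-empty level of 197 CPM in every tag.

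Fgf2, a fibroblast growth factor without a classical secretion signal, stood at 66.5 CPM in young cells, 70.8 CPM in old cells, 149 CPM in AngII-treated young cells and 54.9 CPM in the cells labelled siPiezo1. Tag 3 was far above the rest with a counting interval of 143 to 156 CPM, tags 1 and 2 overlapped, and tag 4 (51.3 to 58.6 CPM) lay just below them. Fgf2 was 2.24-fold (2.10 to 2.39) as high in tag 3 as in tag 1, while the ratio of old to young cells was 1.06 (0.951 to 1.19). The cells labelled siPiezo1 held 0.775 (0.688 to 0.875) of the level in old cells.

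Fgf7 and Fgf10 are paracrine ligands that act mainly on epithelial forms of the receptor Fgfr2. Fgf7 gave 340.2, 452, 375 and 495 CPM in tags 1 to 4. Fgf10 gave 79.5, 93.2, 60.7 and 119 CPM. Both were highest in the cells labelled siPiezo1, and neither passed 1.5-fold in any of the 3 comparisons. Tag 2 over tag 1 was 1.33 (1.27 to 1.39) for Fgf7 and 1.17 (1.06 to 1.29) for Fgf10. AngII-treated cells differed between the genes, with 1.10 (1.07 to 1.14) for Fgf7 and 0.764 (0.705 to 0.827) for Fgf10 over young cells. Tag 4 over tag 2 was 1.10 (1.05 to 1.15) and 1.27 (1.15 to 1.40). In near-empty barcodes Fgf10 stood at 65.4 CPM, above its level in AngII-treated cells.

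Hgf, the ligand of Met, stood at 15.3 CPM (13.8 to 17.0) in young cells, 32.3 CPM (27.7 to 37.3) in old cells, 15.1 CPM (13.2 to 17.2) in AngII-treated young cells and 71.0 CPM (66.9 to 75.2) in the cells labelled siPiezo1. Tags 1 and 3 could not be told apart, at a ratio of 0.982 (0.828 to 1.16), and tags 2 and 4 stood above them in that order. Old over young was 2.10 (1.75 to 2.52), and tag 4 over tag 2 was 2.20 (1.88 to 2.59). The first ratio turned to 0.785 in cells with Xist and no Y-linked UMI, and to 0.529 and 0.579 within the 2 clusters that held enough cells of both tags. The second was 1.32 in cells with Y-linked UMIs and no Xist, no longer past 1.5-fold. Near-empty barcodes, which carry RNA set free from broken cells, held Hgf at 30.5 CPM, above its level in tags 1 and 3. The gene spans chr5:16553495-16620152 on the plus strand (GENCODE vM21, GRCm38).

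Igf1, the ligand of Igf1r, gave few UMIs, with 16.1, 18.3, 14.7 and 11.7 CPM in tags 1 to 4 and 14.3 CPM in near-empty barcodes. The ratio of the cells labelled siPiezo1 to old cells was 0.638 (0.499 to 0.820), from 188 and 102 UMIs, and it came within 1.5-fold under 3 of the 12 other ways of choosing or weighing cells. The other ratios, 1.13 (0.903 to 1.41) for old over young and 0.909 (0.767 to 1.08) for AngII over young, held 1 within their intervals. Vegfa, a ligand of endothelial receptors whose transcription is known to respond to low oxygen, gave 58.7, 87.5, 86.6 and 80.3 CPM. Young cells had the lowest level, and the other tags lay within 80.3 to 87.5 CPM. Vegfa was just inside the 1.5-fold limit, at 1.49 (1.34 to 1.65) for old and 1.47 (1.37 to 1.59) for AngII-treated cells over young cells, and it was past the limit without the cells called doublets, at 1.66 and 1.61. Its near-empty level of 197 CPM exceeded the level in every tag, and the part of free RNA in the Vegfa differences was not tested.

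Met, the receptor kinase that HGF activates, stood at 13.1, 16.5, 16.9 and 15.5 CPM in tags 1 to 4. The intervals of tags 2, 3 and 4 overlapped, and tag 3 over tag 1 was 1.29 (1.09 to 1.53). Where Hgf differed 2.20-fold between tags 4 and 2, the ratio of Met was 0.937 (0.735 to 1.20). Old over young was 1.26 (0.99 to 1.60), from 92 and 315 UMIs. Near-empty barcodes held Met at 14.8 CPM, above its level in tag 1 and close to that in the other tags. The part of free RNA in the Met values was not tested.

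Pdgfra, the receptor that binds most PDGF ligands, stood at 63.8 CPM in young cells, 31.0 CPM in old cells, 34.7 CPM in AngII-treated young cells and 57.2 CPM in the cells labelled siPiezo1. Tags 1 and 4 were high and tags 2 and 3 low, with no overlap between the counting intervals of the higher and the lower pair. The ratio was 0.486 (0.413 to 0.569) for old over young, 0.544 (0.491 to 0.601) for AngII over young and 1.84 (1.57 to 2.18) for tag 4 over tag 2. The gene spans chr5:75152292-75198215 on the plus strand (GENCODE vM21, GRCm38). Pdgfrb, the receptor through which PDGF-BB acts on mural cells, stood at 82.3, 37.8, 48.1 and 40.8 CPM. Here young cells alone were high. Old over young was 0.459 (0.397 to 0.530), AngII over young was 0.585 (0.536 to 0.637), and tag 4 over tag 2 was 1.08 (0.922 to 1.27), so that the 2 receptors differed together in the comparisons with young cells and apart in the comparison of tags 4 and 2.

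Igf1r, the receptor kinase of IGF1, stood at 176, 224, 196 and 223 CPM. Its ratio of old to young cells was 1.27 (1.20 to 1.36), that of AngII-treated to young cells was 1.11 (1.06 to 1.17), and that of tag 4 to tag 2 was 0.995 (0.933 to 1.06). None of these passed 1.5-fold.

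**Figure D2:**
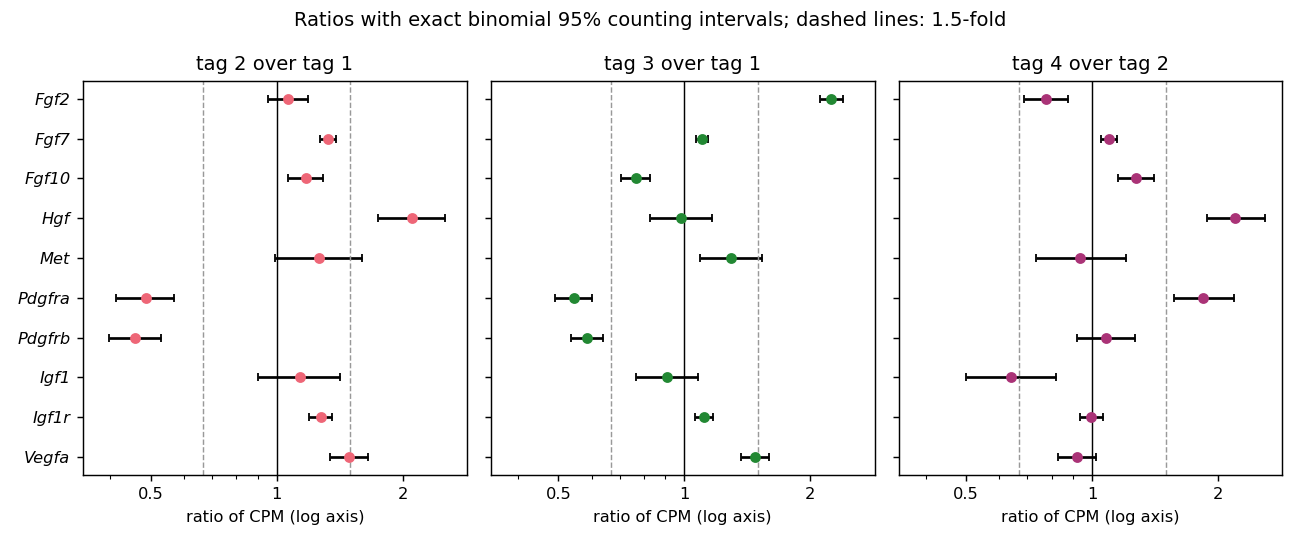
Ratio of CPM for each member in the 3 comparisons (log axis), with exact binomial 95% counting intervals; dashed lines mark 1.5-fold. Pdgfra and Pdgfrb lie left of the lower line in tag 2 over tag 1 and tag 3 over tag 1, Fgf2 lies at 2.24 in tag 3 over tag 1, and Hgf lies at 2.10 and 2.20 in the comparisons of tag 2 with tag 1 and of tag 4 with tag 2.

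Shares of cells with a UMI are given as a description, since free RNA also gives UMIs to cells that do not express a gene. Near-empty barcodes held Fgf2 at 71.1, Hgf at 30.5, Pdgfra at 53.9 and Pdgfrb at 42.9 CPM, above the level of each gene in at least 2 tags. A free share of UMIs was estimated by taking all Xist in cells with Y-linked UMIs as free RNA. It came to 29.4%, 79.1%, 25.6% and 98.9% in tags 1 to 4. In tags 2 and 4, where 71.8% and 76.1% of cells held Xist, cells with Xist of their own can enter this estimate. The values of tags 2 and 4 are therefore no measure of free RNA. The part of free RNA in the shares of cells was not tested. To compare shares at equal depth, every cell was thinned to 5000 UMIs, which left out 747, 21, 136 and 114 shallower cells of tags 1 to 4. After thinning, Fgf2 was found in 25.6% (23.8 to 27.4) of young, 29.0% (25.0 to 33.3) of old, 47.4% (44.7 to 50.05) of AngII-treated and 22.6% (20.5 to 24.9) of siPiezo1-labelled cells. Before thinning the shares were 31.8%, 44.5%, 65.3% and 37.7%. Cells with 3 or more Fgf2 UMIs were 6.52% of thinned AngII-treated cells, against 0.565% to 1.68% in the other tags.

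Hgf was found in 6.26%, 13.9%, 6.30% and 25.8% of thinned cells of tags 1 to 4 (8.75%, 21.5%, 11.3% and 38.6% before thinning), and 3.04% of the cells labelled siPiezo1 held 3 or more Hgf UMIs after thinning. In clusters 7 and 12, where Hgf was lowest, it was still found in 2.80% (1.54 to 4.65) and 2.44% (0.297 to 8.53) of thinned cells, at median depths of 8112 and 7388 UMIs before thinning. Pdgfra was found in 25.0%, 13.4%, 14.7% and 24.0% of thinned cells and Pdgfrb in 32.7%, 19.3%, 20.7% and 18.8%, the same order as their CPM except that tags 2 and 4 of Pdgfrb traded places within their intervals. In cluster 8, where Fgf2, Pdgfra and Pdgfrb were lowest, the thinned shares were 12.3% (5.47 to 22.8), 3.08% (0.375 to 10.7) and 3.08% (0.375 to 10.7), from 65 cells with a median of 5998 UMIs before thinning. No cell type known to lack these genes was set apart, so that a background share could not be fixed. Over the 4 tags, thinned shares ran from 74.6% to 87.1% for Fgf7, from 5.30% to 8.40% for Igf1 and from 5.55% to 7.42% for Met.

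**Figure D3:**
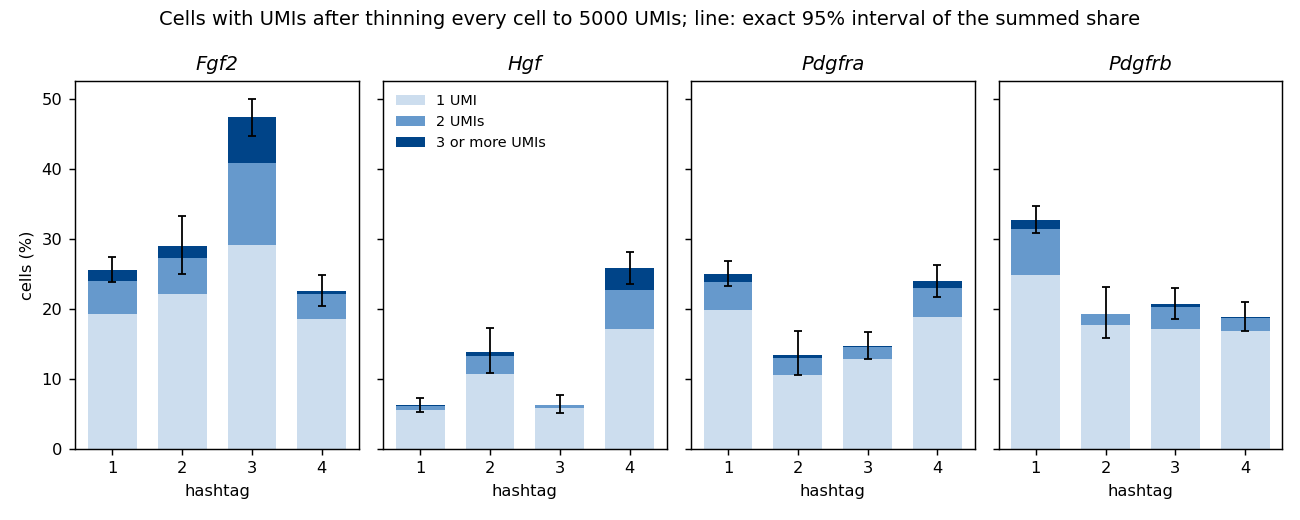
Share of cells (percent) with 1, 2 and 3 or more UMIs of Fgf2, Hgf, Pdgfra and Pdgfrb after every cell was thinned to 5000 UMIs, by hashtag; the line is the exact 95% interval of the summed share. Fgf2 reached 47.4% of tag 3 cells and Hgf 25.8% of tag 4 cells.

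Xist and Y-linked transcripts moved with several of these values. In young cells Hgf stood at 10.7 CPM in the 1700 cells with Y-linked UMIs (Ddx3y, Eif2s3y, Kdm5d or Uty) and no Xist, and at 44.0 CPM in the 154 cells with Xist and no Y-linked UMI. The corresponding values were 25.0 and 34.5 CPM in old cells, 9.84 and 43.0 CPM in AngII-treated cells, and 33.0 and 83.7 CPM in the cells labelled siPiezo1. The ratio of the cells with Xist to those with Y-linked UMIs was 4.10 (3.02 to 5.50), 1.38 (0.914 to 2.15), 4.37 (2.98 to 6.33) and 2.53 (2.01 to 3.24) in tags 1 to 4, so that only the interval of tag 2 held 1. Among cells with Xist only, the ratio of Hgf in old over young cells was 0.785 (0.577 to 1.07), the opposite direction of the ratio over all cells. Among cells with Y-linked UMIs only, tag 4 over tag 2 was 1.32 for Hgf, below 1.5-fold, and among cells with Xist only it was 2.42. The 154 young cells with Xist were a small part of the 3144 cells of tag 1, and they are called young by hashtag alone. The parts of wrongly assigned tags and of the sex of the donor mice in these values were not tested.

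Pdgfrb and Pdgfra were lower in old than in young cells in both kinds of cell. Among cells with Y-linked UMIs, Pdgfra stood at 65.4 CPM in young and 16.4 CPM in old cells, and among cells with Xist at 62.0 and 34.2 CPM. Pdgfrb stood at 89.4 and 41.3 CPM, and at 57.5 and 37.2 CPM. Fgf2 in AngII-treated cells was 164 CPM in cells with Y-linked UMIs, against 66.6 CPM in young cells of that kind, and 102 CPM against 74.3 CPM in the cells with Xist, a ratio of 1.37. Between AngII-treated and young cells with Xist, the ratio of Pdgfra was 0.889 and no longer past 1.5-fold.

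**Figure D4:**
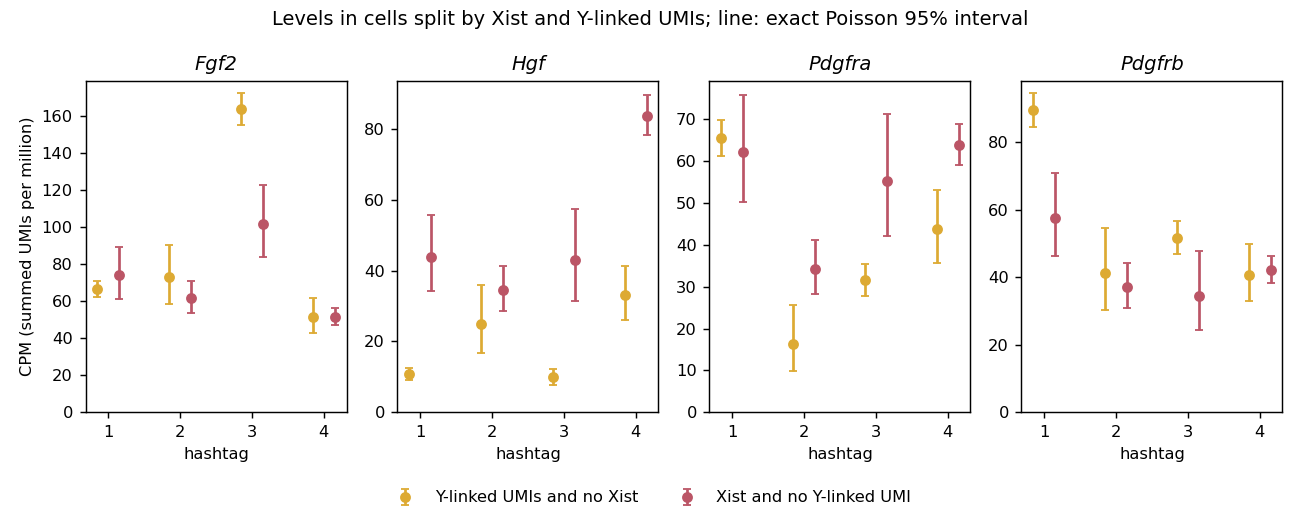
CPM of Fgf2, Hgf, Pdgfra and Pdgfrb in each hashtag, split into cells with Y-linked UMIs and no Xist and cells with Xist and no Y-linked UMI, with exact Poisson 95% intervals. Hgf was 10.7 and 44.0 CPM in the 2 kinds of tag 1 cells and 33.0 and 83.7 CPM in those of tag 4.

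Clusters were made from 1981 variable genes after the members and the pathway genes had been removed, and gave 14 clusters. Levels per cluster are a description, since cells of a cluster share a pool and were grouped by genes that can move with the members. Hgf had the widest range, 47.4-fold (16.1 to 230.5), from 3.28 CPM (3 UMIs) in cluster 12 to 90.3 CPM in cluster 0 (led by Nxph1, Clu and Csf3) and 156 CPM in cluster 9 (led by Lmo7, C1qtnf7 and Klra4). Cluster 12, with 136 cells, was led by Upk1b, Msln and Smpd3. In it 7 of 8 epithelial or mesothelial markers were above the rest of the cells, with a sum of 171 CPM. The low end of the Hgf range therefore lies in cells with markers of another cell type. Cluster 9 held 428 cells, 278 of tag 4 but 4 of tag 2, and 97.2% of its cells had Xist. After thinning, 46.4% (41.4 to 51.4) of its cells held an Hgf UMI. Pdgfra and Fgf10 were also highest in cluster 9, at 103 and 152 CPM, where Igf1 was lowest at 5.38 CPM.

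Fgf2 was high in cluster 3 (148 CPM, led by Lce1g and Serpinb2) and in cluster 5 (141 CPM, led by the cell cycle genes Ccne2 and Clspn among others), which together held 1163 of the 1500 AngII-treated cells. Pdgfrb stood at 98.8 CPM in cluster 2, led by interferon-induced genes such as Ifit3 and Rsad2, which held 1732 of the 3144 young cells and 1 old cell. Igf1 was highest at 44.2 CPM in cluster 11, where 9 of 10 VSMC markers were above the rest of the cells, and next at 26.5 CPM in cluster 6, where all 10 were. Pdgfra was low in cluster 6, at 24.2 CPM. Cluster 13, with 87 cells of which 45 carried tag 3, had the highest Fgf2, Fgf7, Met, Pdgfrb, Igf1r and Vegfa, with 576 CPM for Igf1r against a median over clusters of 201 CPM. The cells of cluster 13 had a median of 4241 UMIs. Its Pdgfrb (111 CPM) and Vegfa (104 CPM) were close to the next highest levels, 98.8 CPM in cluster 2 and 99.5 CPM in cluster 0. With 87 cells, the order of such close values is not firm. Cluster 8, with a median of 3282 UMIs, had the lowest level of 8 members.

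**Figure D5:**
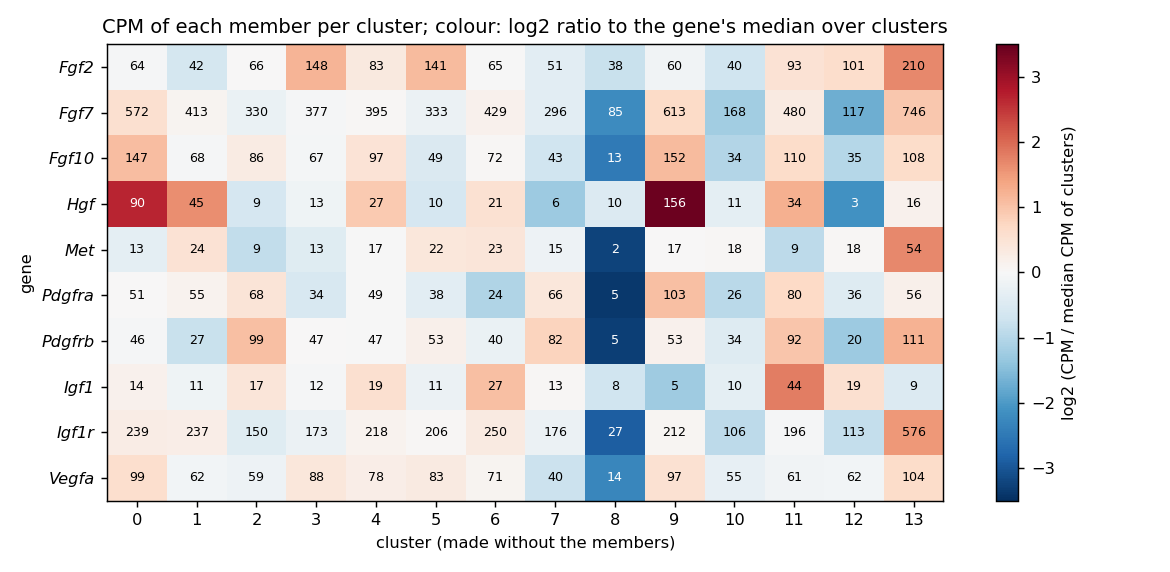
CPM of each member (numbers) in the 14 clusters, which were made without these genes; the colour is the log2 ratio to the gene's median over clusters. Hgf was highest in cluster 9 and cluster 0, Fgf2 in clusters 13, 3 and 5, and most members were lowest in cluster 8.

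Ratios within a cluster were formed only where at least 50 cells of both tags were present. For tag 4 over tag 2 there were 4 such clusters, and for each comparison with tag 1 there were 2. Hgf gave 2.21 (1.58 to 3.15) in cluster 1, which was led by genes of dividing cells such as Mki67 and Top2a, 1.57 (1.26 to 1.96) in cluster 0, 1.13 (0.625 to 2.15) in cluster 4 and 1.08 (0.519 to 2.28) in cluster 6. Pdgfra gave 2.14 (1.58 to 2.96) in cluster 1, 1.10 (0.861 to 1.43) in cluster 0, 1.59 (0.934 to 2.85) in cluster 4 and 1.86 in cluster 6, where 24 and 11 UMIs gave an interval that also held 1. Igf1 was below 1 in 3 clusters and at 1.27 (0.597 to 3.01) in cluster 1, with every interval holding 1.

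For AngII-treated over young cells, Fgf2 gave 1.49 in both usable clusters, 3 (1.19 to 1.90) and 4 (1.25 to 1.78), which was less than the 2.24 over all cells. Pdgfra gave 0.647 (0.450 to 0.956) in cluster 3 and 0.747 (0.586 to 0.945) in cluster 4. Pdgfrb gave 0.608 (0.457 to 0.823) and 0.834 (0.646 to 1.07), so that both receptors were within 1.5-fold in cluster 4. For old over young cells, Hgf was below 1 in both usable clusters, at 0.529 (0.373 to 0.761) in cluster 0, where young cells numbered 55, and 0.579 (0.315 to 0.993) in cluster 4, in which 71.1% of cells were called doublets. Pdgfra was lower in old cells in cluster 4, at 0.297 (0.171 to 0.484), and gave 0.752 (0.486 to 1.20) in cluster 0. Pdgfrb gave 0.645 (0.429 to 0.942) in cluster 4 and 0.734 (0.478 to 1.16) in cluster 0, so that neither receptor was past 1.5-fold in cluster 0.

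Over the 19 groups of at least 50 cells that share a cluster and a tag, the genes whose log2 CPM ran most like a member were sought among 3287 genes with at least 50 CPM. For Hgf they were Ank3 (Pearson r = 0.94), Clmp (0.94) and Tcf4 (0.93), for Pdgfra Mcc (0.93), Lpar1 (0.87) and Lama4 (0.81), and for Pdgfrb Man2a1 (0.91), Ascc3 (0.90) and Slc7a2 (0.89). Fgf2 ran most like Fscn1 (0.88), Sec61a1 (0.86) and Chst11 (0.86), Fgf7 like Lrp1 (0.94), Peak1 (0.94) and Nfkb1 (0.93), and Fgf10 like Pcdh9 (0.93), Lrp1 (0.93) and Nisch (0.91). For the remaining members the likest genes were Srpk1 (0.81) for Met, Capns1 (0.75) for Igf1, Chd8 (0.90) for Igf1r and Pdpn (0.84) for Vegfa. Among the members themselves, Fgf7 and Fgf10 ran most alike (0.87), followed by Fgf10 and Hgf (0.84), while Met and Pdgfrb gave the lowest value (-0.53). These correlations describe groups of 1 pool that share depth and clusters, and they say nothing of shared control. Across the thinned cells of a tag, the 45 pairs of members gave Pearson r between -0.11 and 0.21, which in counts this sparse is no finding.

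Of 54 other genes of the same pathways, 29 had at least 10 CPM. In old over young cells 9 of the 29 were at least 1.5-fold higher and 7 lower (31.0% and 24.1%, against 8.34% and 9.83% of all genes). In AngII-treated over young cells there were 4 and 6 (13.8% and 20.7%, against 6.9% and 7.59%), and in tag 4 over tag 2 there were 1 and 2 (3.45% and 6.90%, against 1.77% and 0.945%). These are counts without a test. Their median ratios were 0.956, 0.980 and 1.03. In the FGF group, 4 of 8 genes were higher in old cells and 0 lower, a count beside the 8.34% and 9.83% of all genes: Spry2 (166 against 104 CPM), a feedback inhibitor of receptor tyrosine kinases, Dusp6 (42.9 against 25.3 CPM), an ERK phosphatase, and the transcription factors Etv4 (22.6 against 9.37 CPM) and Etv5 (22.6 against 13.6 CPM). Dusp6 (40.1 CPM) and Etv4 (14.6 CPM) were also higher in AngII-treated than in young cells. Near-empty barcodes held Spry2 at 213 CPM and Dusp6 at 44.4 CPM, above the level of each in every tag. They held Etv4 at 18.6 CPM and Etv5 at 15.3 CPM, between young and old cells. The part of free RNA in these values was not tested. The FGF receptors Fgfr1 and Fgfr2 stayed within 1.5-fold in all 3 comparisons, with 125 to 168 CPM for Fgfr1 and 50.9 to 62.8 CPM for Fgfr2.

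In the PDGF group, the ligand Pdgfd stood at 38.2, 26.5, 69.1 and 15.3 CPM in tags 1 to 4. It was 1.81-fold (1.65 to 1.98) as high in AngII-treated as in young cells, and the cells labelled siPiezo1 held 0.576 (0.468 to 0.711) of the level in old cells. In near-empty barcodes Pdgfd stood at 21.9 CPM, between tags 4 and 2. Pdgfa and Pdgfc passed 1.5-fold in none of the 3 comparisons. The HGF group had 1 gene with enough counts, the Met adaptor Gab1, which stayed between 13.1 and 18.9 CPM.

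In the IGF group, several IGF binding proteins were lower in old than in young cells: Igfbp3 at 10.0 against 63.7 CPM, Igfbp6 at 25.1 against 109.6 CPM and Igfbp7, which binds IGF1 only weakly, at 570.3 against 1282 CPM. Igfbp4 went the other way (26.7 against 13.4 CPM). So did Igfbp5, at 28.7 against 2.49 CPM from 160 and 60 UMIs, a ratio of 11.5 (8.52 to 15.8), which had 9.45 CPM over all cells, under the minimum of 10, and is named after its values were seen. Also higher were the receptors Insr (50.7 against 28.4 CPM) and Igf2r (79.6 against 52.2 CPM), while the adaptor Irs2 was lower (18.6 against 28.5 CPM). Near-empty barcodes held Igf2r at 99.2 CPM, above its level in every tag, and Igfbp4 at 32.9 CPM, above young and old cells. They held Igfbp3 at 26.2, Igfbp6 at 54.9, Igfbp7 at 592 and Insr at 35.3 CPM, between young and old cells. Pappa, the protease that frees IGF1 from IGFBP4, stood at 85.0, 81.2, 31.8 and 173 CPM, which gave 0.374 (0.338 to 0.414) for AngII over young cells and 2.14 (1.93 to 2.36) for tag 4 over tag 2. In near-empty barcodes Pappa stood at 61.1 CPM, above its level in AngII-treated cells. Igfbp6 and Igfbp7 were also lower in AngII-treated than in young cells, at 67.6 and 847 CPM. The part of free RNA in the values of the IGF group was not tested.

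In the VEGF group, Vegfd, a ligand of lymphatic growth, stood at 248 CPM in young cells and at 17.0, 29.6 and 24.0 CPM in tags 2 to 4, which made ratios of 0.0688 (0.0555 to 0.0842) for old and 0.119 (0.108 to 0.132) for AngII-treated over young cells. The receptor Flt1 (13.8 against 61.4 CPM) and the ligand Vegfc (67.1 against 108 CPM) were lower in old than in young cells, and the ligand Pgf (22.4 against 9.66 CPM) and the co-receptor Nrp2 (41.1 against 24.4 CPM) were higher. In AngII-treated over young cells, the co-receptor Nrp1 was higher (125 against 59.6 CPM), and Vegfb (28.7 against 51.9 CPM) and Hif1a, the oxygen-regulated subunit of a transcription factor that acts on Vegfa (194 against 346 CPM), were lower. Pgf was lower in tag 4 than in tag 2, at 12.1 against 22.4 CPM. Near-empty barcodes held Vegfd at 68.2, Flt1 at 27.2 and Pgf at 13.8 CPM, between young and old cells. They held Vegfb at 30.5 and Hif1a at 260 CPM, between AngII-treated and young cells. The part of free RNA in these values was not tested.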

How the data were processed

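The authors deposited 1 matrix of raw UMI counts for 32285 genes and 4 hashtags in 2472397 barcodes, made with Cell Ranger 4 per the file header and not filtered to cells. The reference genome and gene models used were not given in the sources used here. The submitters' processing notes also name Seurat. Cells were barcodes with at least 2218 gene UMIs (one part in 10 of what the 10000 deepest barcodes reach at percentile 99) and 200 genes, and doublets were kept in the main values (2326 of 13045 called by Scrublet in scanpy 1.11.5). UMIs were summed per tag and divided by all gene UMIs of the tag (CPM). Exact Poisson, binomial and Clopper-Pearson intervals came from scipy 1.17.1. Ratios and their intervals were tested on simulated Poisson counts, the model that the intervals assume. Spread between cells beyond that model was not simulated, and the intervals do not cover it. Cells were clustered in Seurat 5.3.0 (R 4.3.3) with 30 principal components, 20 neighbours and a resolution of 0.8. Near-empty barcodes were those with 1 to 100 UMIs. A member counted as different when its ratio was past 1.5-fold. Named genes were all members, pathway genes past 1.5-fold with at least 10 CPM, and the 3 genes of at least 50 CPM most like a member over clusters and tags. The members and the lists were chosen with earlier results of these data known.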

Additional observations from a re-analysis of the deposited data

Results flagged for a closer look

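Hgf in the 5307 cells without a tag stood at 51.1 CPM (49.0 to 53.4), above the counting intervals of both control cultures, young (upper bound 17.0 CPM) and old (upper bound 37.3 CPM). It lay below the level of the cells labelled siPiezo1, at 71.0 CPM (66.9 to 75.2). The cells without a tag enter none of the comparisons, and 51.0% of them held Xist. Of these, 1614 were in cluster 0, where Hgf stood at 90.3 CPM over all cells of the cluster. Which cultures the cells without a tag came from was not tested. Among the cells without a tag, Hgf stood at 35.0 CPM in those with Y-linked UMIs and no Xist. It stood at 67.1 CPM in those with Xist and no Y-linked UMI.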

How the results depend on the processing

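No paired analysis was possible because the pool holds 1 culture per tag. The 2 samples are, by their titles, the gene expression and hashtag libraries of the same cells. Of 13 alternatives, 10 were planned and 3 were chosen after seeing the data (HTODemux at the 0.99 quantile, no cells of clusters 4 and 8, and cells with Xist and no Y-linked UMI only). Of the counts of members past 1.5-fold, 54 stayed at their value or within 1.5 times of it and 20 did not. Of the single ratios, 306 stayed inside the counting interval, 63 left it and 1 that was past 1.5-fold turned its direction. A turn was counted only for ratios past 1.5-fold in the main values, and several nearer 1 also crossed it. Fgf10 for old over young, for instance, went from 1.17 to 0.786 in cells with Xist and no Y-linked UMI. For old over young cells (1 higher), the count was 2 with HTODemux at the 0.95 quantile, where Met joined Hgf, and 2 without doublets, after thinning, with every cell weighted alike or without clusters 4 and 8, where Vegfa joined. It was 3 in cells with Y-linked UMIs and no Xist (97 old cells), and 0 in cells with Xist and no Y-linked UMI, where the ratio of Hgf turned to 0.785. For AngII-treated over young cells (1 higher, 2 lower), it was 2 higher under a tag at least 3 times the next, without doublets, in cells with Y-linked UMIs, with the near-empty profile subtracted, with every cell weighted alike and without clusters 4 and 8, with Vegfa in each. It was also 2, with Hgf at 1.70, when cells with 1 tag or none took the tag of highest count over cutoff. In cells with Xist it was 0 higher and 1 lower (Pdgfrb). For tag 4 over tag 2 (2 higher, 1 lower), 0 were lower with HTODemux at the 0.95 quantile and with the tag of highest count over cutoff. In cells with Y-linked UMIs 0 were lower too, and 1 (Pdgfra) was higher. The cause of these changes was not tested. The near-empty profile could be subtracted only for AngII over young. The free share estimated from Xist in cells with Y-linked UMIs came to 79.1% and 98.9% in tags 2 and 4. At these values 2 and 4 members were left at or below 0. Cells with Xist of their own can enter the estimate in these tags, so it is no measure of free RNA there. For AngII over young, the subtraction left Vegfa near 0 in young cells and its ratio at 40.9. Pdgfra stayed past 1.5-fold under all 12 alternatives for old over young and for tag 4 over tag 2. Both ratios use tag 2, with 173 Pdgfra UMIs, so that a low level particular to that culture enters both. Within cluster 0 they were 0.752 (0.486 to 1.20) and 1.10 (0.861 to 1.43), neither past 1.5-fold. Depth limits Igf1 and Met most, with 92 to 102 UMIs in tag 2.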

Other observations

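The other members were less distinct in the 5307 cells without a tag: Pdgfra stood at 47.7 CPM (45.6 to 49.8), between old and young cells, Fgf2 at 68.3 CPM (65.8 to 70.9) and Met at 19.1 CPM (17.8 to 20.5). Pdgfrb stood at 37.3 CPM (35.5 to 39.2), close to its level in old cells.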
